A study of Drosophila melanogaster with 40 samples.

Results

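The transient zygotic genes described here were chosen from FPKM values (a fragment count scaled by transcript length and library size) of wild-type Drosophila embryos at 3 stages. Members had an FPKM below 1 at 0.75 h, at least 5 at 3 h, and at 6 h no more than 0.25 of the 3-h value. Of 17535 genes in the stage tables, 98 met these limits. 11 of them were dropped by name because they belong to the well known patterning and cellularization genes (eve, ftz, gt, hairy, nullo, opa, prd, tll, twi, upd1 and zen), which left 87 members. The stage values are therefore the values that chose the members, and below they are given as a description only. As a nearby set, 197 other genes were below 1 at 0.75 h and at least 5 at 3 h but fell less by 6 h. They are called the sustained zygotic genes.

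A fly embryo first lives on RNA that the mother placed in the egg. In the maternal-to-zygotic transition these maternal transcripts are cleared and the embryo's own genome is switched on, and the pioneer factor Zelda, which binds the sequence CAGGTA and close variants, opens many of the first promoters. The earliest zygotic transcripts come from short genes, often without introns, and many of them last only through the blastoderm, when the nuclei at the egg surface are enclosed by membranes and the body axes are laid down.

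The study asked how the DNA mark N6-methyladenine (6mA), its demethylase DMAD (listed as Tet in the gene annotation) and the forkhead protein Jumu act in this transition. RNA-seq groups were w1118 wild-type embryos at 0.75, 3 and 6 h (the stage series). The jumu series at 3 h held w1118 embryos, jumu M-,Z+ embryos, which lack the maternal product but have a zygotic copy, and jumu M-,Z- embryos, which lack both. The DMAD series at 3 h held w1118 and DMAD M- embryos, which lack maternal DMAD. The 3-h collections also differed in stage markers, which are given beside the results they touch. The summed FPKM of 9 maternal transcripts alone was 397, 165 and 1519 in the wild types of the stage, jumu and DMAD series. Single transcripts differed in order: pgc was at 63.8, 49.8 and 1009, and smg at 130, 26.7 and 33.5. Further groups were w1118 and jumu M-,Z+ embryos at 0.75 h, and ovaries of w1118 and jumu mutant females. The labels do not say which of the alleles jumu1 and jumu2, or DMAD1 and DMAD2, was used, and for DMAD M- they give no zygotic genotype. Each RNA-seq group had 2 libraries of pooled whole embryos or ovaries, but the tables hold 1 pooled FPKM per gene and group. No spread between replicates can be had from them, so no test was possible and no p-value is given. Sequencing depth behind these values is unknown.

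Within a table, a gene was counted as risen or fallen when log2(FPKM + 1) differed by at least 1 between 2 groups, among genes whose mean FPKM over the groups of the table was at least 1. The targeted genes did not separate the groups by RNA level. The FPKM of jumu was 71.8 in wild type, 103 in M-,Z+ and 55.5 in M-,Z- embryos at 3 h, and that of Tet was 1.49 in wild type and 3.41 in DMAD M- embryos. In whole embryos, fewer cells that express a gene and less RNA per cell cannot be told apart.

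The list of 87 members was led by short genes with no assigned name. At 3 h in the stage series, CG43184 reached an FPKM of 1869 and was listed at 0 at 0.75 h and at 6 h. CG14915 followed with 1771, between 0.920 at 0.75 h and 1.35 at 6 h. The zinc finger gene term (terminus) reached 920, CG43725 reached 722 and CG7271 reached 530. All of these fell to an FPKM below 2 by 6 h. At the other end, alpha-Est6 was the member nearest the lower limit with 5.16 at 3 h, beside Porin2 with 5.20 and CG10663 with 5.42. Just outside were lncRNA:CR44762 with 4.95, Nplp4 with 4.94 and CG17571 with 4.93. For the decline, CG42762 was nearest inside with 0.241 of its 3-h level left at 6 h, then byn with 0.238 and CG10663 with 0.229, and just outside were CG4982 with 0.259, Ptr with 0.280 and CG43390 with 0.287. Over the members the median was 28.7 at 3 h and 0.991 at 6 h. 53 members kept no more than 0.0625 of the 3-h level, and 25 were listed at 0 at 6 h.

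By role, the members with a known function included 4 genes of the dorsal BMP system. scw (screw) encodes a BMP ligand of the blastoderm, tsg (twisted gastrulation) and srw (shrew) encode secreted proteins that act with the BMP ligands, and zen2 is the homeobox neighbour of the dorsal selector zen. DNA-binding regulators were byn (the hindgut T-box factor), hbn (homeobrain, a homeobox gene of the head), net (a basic helix-loop-helix factor), Blimp-1 (a zinc finger repressor), lov (a BTB domain protein), and the paired genes dan and danr. spo (spook) and sro (shroud) act in ecdysone synthesis, as does GstE14 (noppera-bo). Ac78C is an adenylate cyclase and Pka-C3 a protein kinase A catalytic subunit. The RNA lncRNA:CR44504 covers, on the same strand, the miR-309 cluster, whose microRNAs help to clear maternal transcripts.

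**Figure D1:**
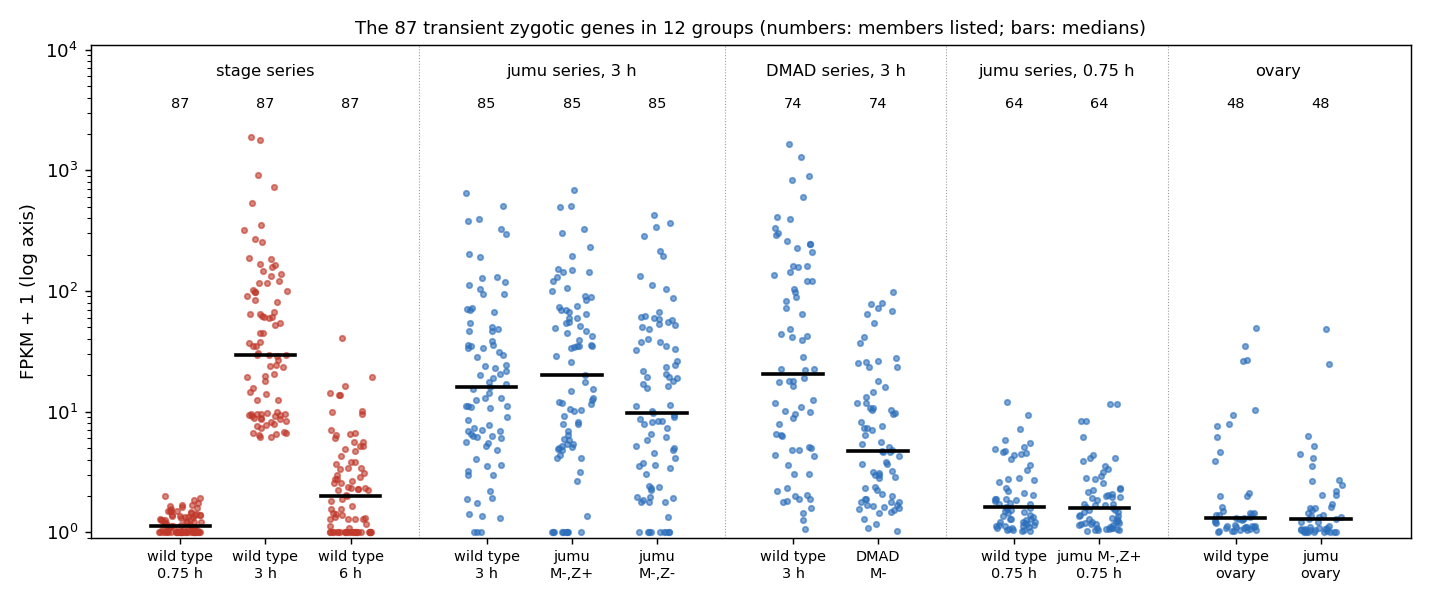
FPKM + 1 (log axis) of the transient zygotic genes in the 12 RNA-seq groups, 1 point per gene, with the median as a bar and the number of members that the table lists above each group. Red marks the stage series, whose values chose the members. In the tables that did not choose them, the median is lower in DMAD M- than in its wild type (3.74 against 19.6) and lowest in the 0.75-h embryos and ovaries.

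Gene structure was not a limit of the rule, but the FPKM values behind the rule are scaled by transcript length. In a short transcript few fragments can give a high FPKM, so the lengths and exon counts below are not independent of the choice of members. How far this scaling favoured short genes with a single exon was not tested. Of the 87 genes, 86 could be placed on the dm6 genome with the Ensembl annotation (FBgn0037645 could not), 74 of them protein-coding. The protein-coding members had a median length of 1211 bp, against 2149 bp for all protein-coding genes and 3994 bp for the sustained zygotic genes. 29 of 74 had a single exon, which is 39.2% (95% Clopper-Pearson interval 28.0 to 51.2), against 15.5% of all protein-coding genes and 18.4% of the sustained ones. 18 of 74, or 24.3% (15.1 to 35.7), lay inside the span of another, longer protein-coding gene, against 11.4% of all protein-coding genes. In RhoGEF64C, 3 members sit in 1 host: CG15876 (chr3L:4694205-4694845, minus strand), CG13712 (chr3L:4709209-4709890, minus strand) and CG13711 on the plus strand, each with a single exon. Intervals here and below cover counting error only.

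43 of the 86 placed members overlap another annotated gene. The sources used here do not say that the counting used strand, so reads of a gene and its antisense partner cannot be told apart. This holds for asRNA:CR46264 and CG14915, which are both members, for asRNA:CR45886 and CG14111, also both members, and for the nested genes. snoRNA:U3:9B and snRNA:U2:38ABa belong to families of nearly identical copies and normally carry no poly(A) tail, while the libraries were made from poly(A)-selected RNA, so their values are uncertain.

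The promoters, read from 250 bases before to 50 bases after the annotated gene start, carried the Zelda site more often than those of other genes. CAGGTA on either strand was found in 34 of 86 members, 39.5% (29.2 to 50.7), in 20.6% of the sustained zygotic genes (15.2 to 27), and in 6.34% of all 17370 promoters. The longer form CAGGTAG, which contains the first, was in 20 members (23.3%), 10.3% of the sustained genes and 1.63% of all. 22 members held more than 1 CAGGTA, and 63 of the 64 matches lay before the gene start, 32 of them within 100 bases of it. The TATA box TATAAA was in 51.2% of members and 44.4% of all promoters. GAGAG, the core of the GAGA factor site, was in 27.9% of members, 29.5% of all promoters and 51.5% of the sustained genes. The Bicoid site TAATCC was in 17.4% of members and 9.08% of all promoters, and the forkhead core GTAAACA in 4.65% of members and 8.63% of all. All motifs were searched on both strands. A match is a stretch of letters and not a shown binding event.

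The following stretches show how closely the sites are spaced before genes that matter in the comparisons below. Each reads 5′ to 3′ on the strand of the gene in the dm6 reference, and capitals mark CAGGTA, or TACCTG where the site lies on the other strand.
CG7271, chr3L:18588669-18588724, plus strand: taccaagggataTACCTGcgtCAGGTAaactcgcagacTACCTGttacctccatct
CG13711, chr3L:4757734-4757830, plus strand: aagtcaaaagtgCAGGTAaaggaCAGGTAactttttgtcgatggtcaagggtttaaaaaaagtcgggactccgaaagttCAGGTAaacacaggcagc
CG15876, chr3L:4694878-4694956, minus strand: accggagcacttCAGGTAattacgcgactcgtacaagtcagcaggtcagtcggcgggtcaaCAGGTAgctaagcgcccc
scw, chr2L:19700988-19701146, minus strand: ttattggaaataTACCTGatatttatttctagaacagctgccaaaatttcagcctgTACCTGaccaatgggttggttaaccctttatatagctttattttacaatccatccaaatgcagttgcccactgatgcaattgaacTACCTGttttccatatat
tsg, chrX:11988989-11989071, minus strand: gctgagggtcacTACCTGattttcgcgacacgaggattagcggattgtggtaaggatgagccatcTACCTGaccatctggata
srw, chr3L:4283534-4283587, minus strand: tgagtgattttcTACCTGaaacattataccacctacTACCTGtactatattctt
zen2, chr3R:6744191-6744220, minus strand: tcgcaggcgggaCAGGTAggaaccaatccg
term, chr3L:18593805-18593834, minus strand: accttcacagtcTACCTGttaccctgtagt
The CG7271 stretch runs from 90 to 35 bases before the gene start and packs 3 sites into 56 bases, CG13711 has 3 sites in 97 bases, and scw has 3 sites in 159 bases that end 20 bases before the start. zen2 and term each show 1 site.

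**Figure D2:**
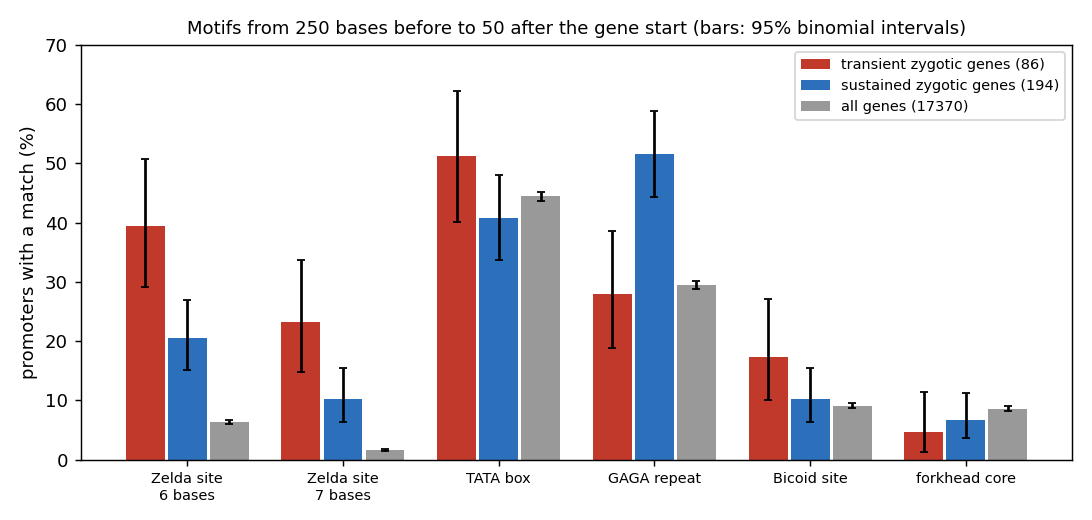
Share of promoters with a match to each of 6 motifs for 86 transient zygotic genes (red), 194 sustained zygotic genes (blue) and 17370 genes (grey), with 95% binomial intervals. The 6-base Zelda site is in 39.5%, 20.6% and 6.34% of the promoters, and the GAGA repeat is higher in the sustained genes (51.5%) than in the other sets.

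Members with the Zelda site were also the more abundant ones. In the 3-h wild types that did not choose the members, the median FPKM of the members with CAGGTA was 34.3 in the jumu series (33 listed) and 121 in the DMAD series (33 listed). Members without it had medians of 8.0 (51 listed) and 8.66 (40 listed).

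The other 2 wild-type collections at 3 h show how far the rule carried over. By the study's methods, the stage series and the 3-h jumu series were sequenced on different Illumina platforms with different read lengths. Every table was also scaled on its own, so levels across tables are only roughly comparable. 51 of the 87 members had an FPKM of at least 5 in both other 3-h wild types, 16 in 1 of them and 20 in neither. The outcome went with the level that chose them: of the 36 members at 50 or more in the stage series, 32 reached 5 in both, and of the 27 members between 5 and 10, 2 did and 16 reached it in neither. The members absent from the jumu series at 3 h included Sgs7, a salivary glue gene of the larva, CG43630 and CG13230, all listed at 0 in its 3 groups. These genes are not listed in the DMAD series, and CG43630 was at 25.2 in wild-type ovary. In contrast, several members were higher in the DMAD series than in the stage series: scw had an FPKM of 290 against 43.8, CG18269 333 against 25.7, and CG13000 1289 against 144. At 0.75 h in the jumu series, 23 of 64 listed members reached 1 in wild type, with CG43184 at 8.43 and asRNA:CR45929 highest at 11.

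DMAD M- embryos showed the clearest difference. Of 67 members that passed the filter on low values, 52 fell, 2 rose and 13 did neither, against a background of 5.18% of 8501 genes down and 21.9% up. With the groups quantile normalized, 60 of 69 members fell and 1 rose, and the background was 15.1% down and 14.6% up. Without that normalization, 77.6% of the members fell, with a median change of -1.93 in log2(FPKM + 1), while the median over all genes was -0.01. The sustained zygotic genes did not share this: 21 of 174 fell (12.1%), 22 rose and the median change was -0.23. Among the 11 genes dropped by name, all 11 fell. 20 members were not counted, 13 of them because the DMAD table does not list them. By any amount, 59 of the 67 members were lower in the mutant and 8 were higher. Of all 8501 genes, 4270 were lower and 4231 higher.

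The BMP genes were among those that fell most. The FPKM of scw was 290 in wild type and 0.880 in DMAD M- embryos, that of tsg 210 and 9.71, that of srw 71.4 and 6.30, and that of zen2 47.0 and 1.07. All 4 members of this pathway were therefore lower by more than 2-fold. Over the whole BMP list, which includes them, 8 of 17 genes counted fell and 2 rose (Ance, an early dorsal enzyme, and peb, the amnioserosa factor hindsight), and the median change was -0.84. The broadly used ligand dpp was at 5.37 in wild type and 2.56 in the mutant, a change of -0.84 that did not reach the limit.

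In wild type, CG18269 had an FPKM of 333 and in DMAD M- embryos 0.164, the largest difference among the members (-8.16 in log2(FPKM + 1)). The 3 genes nested in RhoGEF64C fell together. CG15876 went from 299.5 to 2.79, CG13712 from 134 to 0.525 and CG13711 from 121 to 0.0270. CG43184, the most abundant member, had 243 and 3.32. term had 1656 and 71.8, CG7271 had 824 and 66.8, CG14427 had 893 and 77.1, and CG13000 had 1289 and 22.6. The host RNA of the miR-309 cluster, lncRNA:CR44504, was at 15.4 and 1.22. It was singled out here after its values were seen.

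Several DNA-binding regulators were measured as well. Besides term and zen2, given above, dan was at 11.6 in wild type and 4.6 in the mutant, danr at 63.9 and 25, byn at 18.1 and 6.38, Blimp-1 at 6.85 and 1.82, and lov at 16.9 and 1.97. hbn (2.02 and 0.790) and net (8.85 and 4.07) did not reach the limit. In ecdysone synthesis, spo was at 16.9 and 3.60 and sro at 121 and 22.5, and both fell, while GstE14 with 3.78 and 2.18 did not reach the limit. The 2 members that rose were CG16749, from 4.03 to 97.7, and CG18628, from 0.818 to 4.39, though the latter did not pass after quantile normalization (0.60). Lapsyn, a leucine-rich repeat protein of synapses, was at 3.41 and 3.76.

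**Figure D3:**
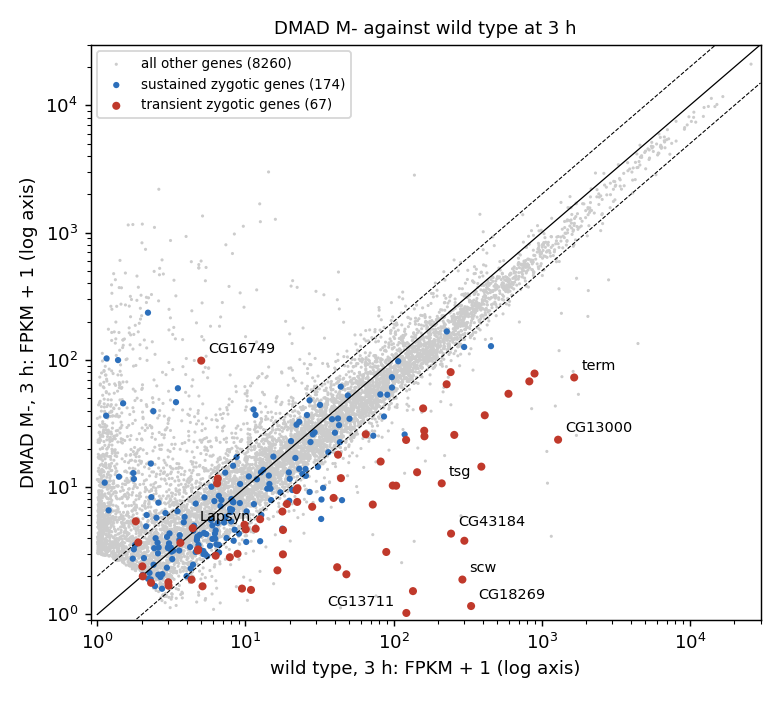
FPKM + 1 in wild type and DMAD M- embryos at 3 h (both axes logarithmic), 1 point per gene that passed the filter: 67 transient zygotic genes (red), 174 sustained zygotic genes (blue) and all other genes (grey). The solid line marks equal values and the dashed lines a difference of 1 on the log2 scale. 52 red points lie below the lower dashed line and CG16749 lies far above the upper one.

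The fall in DMAD M- embryos is given here by classes of the 6-h to 3-h ratio in the wild-type stage series. The rule used this ratio to choose the members, so the classes are a description. Of the members with at most 0.0625 of the 3-h level left, 33 of 37 fell, with a median change of -3.32. Between 0.0625 and 0.125, 8 of 11 fell with a median of -1.32, and between 0.125 and 0.25, 11 of 19 fell with a median of -1.17. The sustained genes continued the series, with 10 of 29 down between 0.25 and 0.5, 7 of 50 between 0.5 and 1, and 4 of 95 where the 6-h level was above the 3-h level. No such gradient in the same direction was seen in jumu M-,Z- embryos, where 9 of 43, 4 of 12 and 8 of 21 members fell in the 3 classes of members. The stage values used for the classes and the DMAD values come from different libraries. Levels in the DMAD wild type were not held equal across the classes, and a gene at a low level there has less room to fall.

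**Figure D4:**
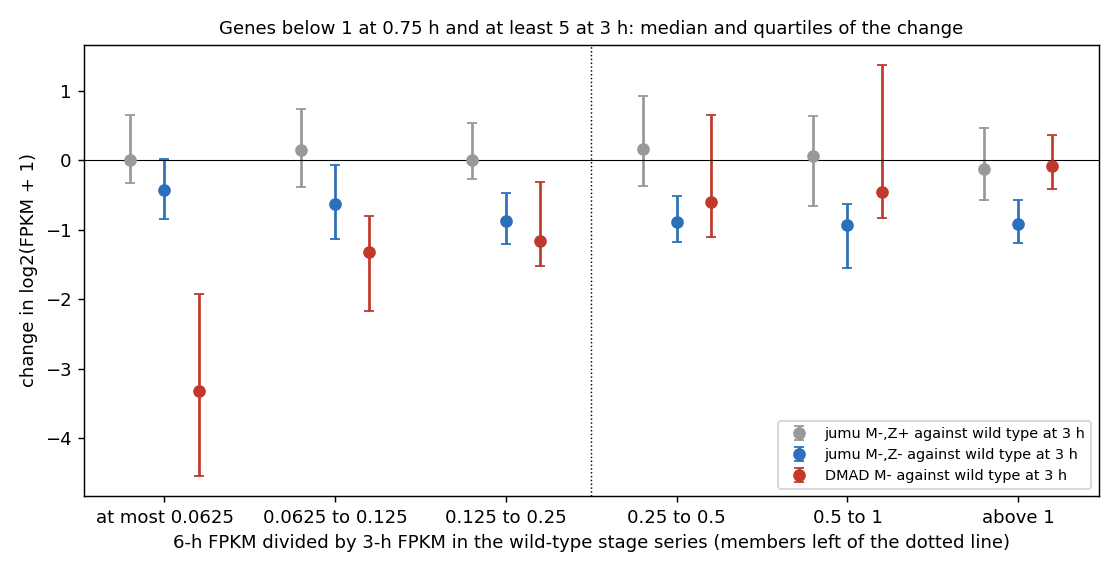
Median (point) and quartiles (bars) of the change in log2(FPKM + 1) for genes below 1 at 0.75 h and at least 5 at 3 h, in 6 classes of the ratio of 6-h to 3-h FPKM in the wild-type stage series, for 3 comparisons. Members lie left of the dotted line. In DMAD M- the median goes from -3.32 in the first class to -0.09 in the last, and in jumu M-,Z- from -0.43 to -0.92.

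Markers of developmental stage also differed between the groups of the DMAD series. The summed FPKM of 9 maternal transcripts, all at 1 or more in both groups, was 1519 in wild type and 936 in DMAD M- embryos. It was 397 at 3 h and 164 at 6 h in the stage series. The largest in the DMAD wild type were pgc (1009 and 459) and plu (319 and 226). Counted by gene, the list went the other way from its sum, since 2 of the 9 rose, 1 fell and the median change was 0.55. The summed FPKM of 9 genes of differentiated muscle, nerve and blood cells was 34.4 in wild type, with 3 of 9 at 1 or more, and 1002 in DMAD M-, with 8 of 9. For 97 genes with symbols starting Cpr or Twdl, called the cuticle genes here, 54 of them listed, the sums were 101 and 8091. The list also took in Cpr itself, a cytochrome P450 reductase gene and not a cuticle protein gene, which gave 55.1 and 67.8 of these sums. The member on that list, Cpr60D, was at 10.7 and 3.71. The sum of 16 eggshell and yolk genes was 42.0 and 30.1. Of the eggshell and yolk list Cp7Fa was not listed in this table, and no maternal or differentiation gene was at 0. In the wild-type stage series at 0.75, 3 and 6 h, the 9 differentiation genes summed to 188, 556 and 500. The cuticle genes, all 97 listed there, summed to 491, 955 and 757, of which Cpr gave 161, 159 and 103. The part of stage in the fall of the members was not tested.

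The members with the Zelda site fell in 28 of 31 cases in DMAD M- embryos, with a median change of -3.46, and those without it fell in 24 of 36 cases, with a median of -1.27. The members with the site were also higher in the wild type of this series, with a median FPKM of 121 against 8.66. A gene at a low level has less room to fall on this scale, and site and level were not separated. Over all genes with the site in the promoter, members included, 15.9% of 578 fell, against 4.39% of 7786 without it. Among the sustained genes with the site, 7 of 38 fell. The RNA of zld, which encodes Zelda, was at an FPKM of 46.9 in wild type and 22.4 in DMAD M- embryos, and its part in the fall was not tested.

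In jumu M-,Z+ embryos at 3 h the members as a set stayed near their wild-type level. Of 76 members counted, 12 rose (15.8%) and 4 fell (5.26%), against 12.4% and 8.99% of 8941 genes, and the median change was 0.02. After quantile normalization 9 rose and 5 fell, against 11.2% and 10.3%. These shares are close to the background and are not a result about the members. The largest rises were in a few genes, most of which were near their wild-type level in M-,Z- embryos. asRNA:CR46264 was at 2.54 in wild type, 68.2 in M-,Z+ and 2.44 in M-,Z- embryos, and CG14915, which it overlaps, at 391.7, 690 and 337. asRNA:CR45886 was at 15.9, 87.6 and 18.5, and CG14111, which overlaps it, at 68.0, 232 and 61.2. CG44836 was at 1.18, 12 and 0.976. mas (masquerade, a serine protease homologue needed for muscle attachment) was at 6.79, 33.7 and 7.38. The ecdysone gene spo was at 28.2, 148 and 59.9 and was the 1 member that rose in both genotypes, but its change in M-,Z- of 1.06 became 0.52 after quantile normalization and no longer passed. Both comparisons share the same wild type.

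Of the 4 that fell in M-,Z+ embryos, lncRNA:CR44463 (19.5 in wild type) and CG43114 (4.65) were listed at 0 in both mutant groups. net was at 47.1, 19.2 and 15.4 and Cpr60D at 12.1, 4.42 and 7.69. These values have no replicate error, and a 0 in such a table can be a failed estimate.

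In jumu M-,Z- embryos 21 of 76 members fell (27.6%) and 2 rose (2.63%), against 18.3% down and 20.2% up over all genes. The median change was -0.60, with a median of 0.10 over all genes. This was not particular to transient genes, since the sustained zygotic genes had 77 of 191 down (40.3%) and a median of -0.91, and no test of that difference was made. Atx-1 (ataxin 1) was at 93.5 in wild type, 72.6 in M-,Z+ and 32.3 in M-,Z- embryos, CG14787 at 9.70, 6.97 and 2.78, and CG16749 at 5.87, 3.10 and 1.34, whose change in M-,Z- did not pass after quantile normalization (-0.89). dan was at 111, 130 and 51.4 and danr at 66.2, 68.4 and 31.2, so the paired genes fell together. Pka-C3 was at 71.6, 58.3 and 34.1, and sro at 27.3, 13.9 and 10.3. The 2 that rose were spo and CG13711, the latter at 30.0, 38.2 and 66.1. Both calls ended with quantile normalization, where 0 members rose in M-,Z- embryos and the change of CG13711 was 0.56.

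The BMP members were among the 53 of 76 members that did not pass the limit in M-,Z- embryos. scw was at 19.2 in wild type, 34.8 in M-,Z+ and 18.2 in M-,Z- embryos, tsg at 22.9, 33.9 and 20.9, srw at 45.5, 83.8 and 57.9, and zen2 at 10.2, 9.37 and 7.30. None of them passed it in M-,Z+ embryos either. Over the BMP list of 18 genes, 6 fell and none rose in M-,Z- embryos, those being Ance, pnr, tup and the 3 Dorsocross genes Doc1, Doc2 and Doc3, which are regulators and enzymes of the dorsal ectoderm downstream of the ligands.

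Set directly against M-,Z+ embryos, the M-,Z- embryos had 29 of 76 members lower (38.2%) and none higher, with 12.3% of all genes lower and 4.88% higher. The median change was -0.86 and over all genes 0.05, and for the sustained genes 90 of 191 were lower (47.1%) with a median of -0.99. Besides the genes named above, Blimp-1 was at 32.5 in M-,Z+ and 7.96 in M-,Z- embryos (15.1 in wild type), lncRNA:bxd, a noncoding RNA of the bithorax complex, at 48.3 and 16.9, lov at 45.8 and 18.3, and Mdr49, an ABC transporter, at 63.4 and 23.1.

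**Figure D5:**
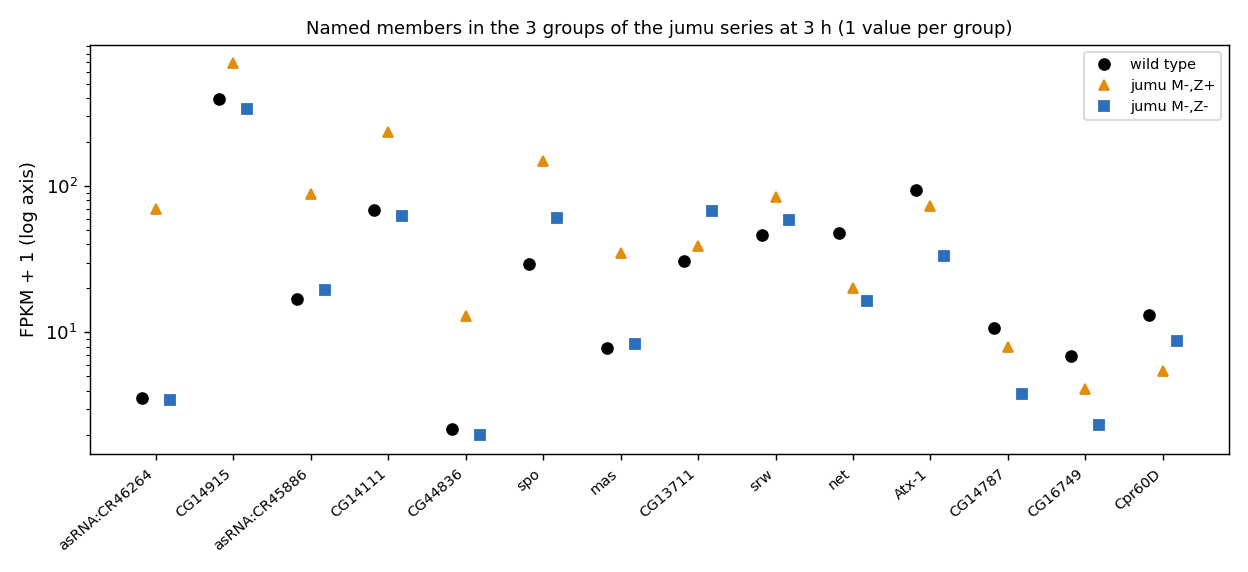
FPKM + 1 (log axis) of 14 named members in wild type (circles), jumu M-,Z+ (triangles) and jumu M-,Z- embryos (squares) at 3 h, 1 pooled value per group. The 7 genes on the left are highest in M-,Z+, and from net to CG16749 the order falls from wild type to M-,Z-.

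The stage markers moved in the jumu series as well. The sum of the 9 maternal transcripts was 165 in wild type, 486 in M-,Z+ and 1227 in M-,Z- embryos. That of the 9 differentiation genes was 749, 466 and 31.0, with 8, 7 and 2 of 9 at 1 or more. The 97 cuticle genes summed to 1715, 455 and 178, of which Cpr gave 47.5, 138 and 150. Eggshell and yolk genes summed to 10.6, 21.7 and 13.2, with Vm32E and Vm34Ca at 0 in M-,Z+ and Vm32E in M-,Z-. The part of stage in these differences was not tested.

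In the 0.75-h embryos and the ovaries, little could be measured. At 0.75 h, 24 members passed the filter in the jumu series, of which Mabi rose in M-,Z+ embryos (from 0.338 to 3.14) and CG14915 (3.53 to 1.03) and CG18269 (3.93 to 0.975) fell. Over all genes 1.34% rose and 3.36% fell. After quantile normalization 1 member rose and 1 fell, and CG14915 (-0.9993) no longer passed. Stage markers differed here too. The 9 maternal transcripts summed to 3291 in wild type and 3056 in M-,Z+ embryos, and the 9 differentiation genes to 266 and 42.1. The cuticle genes, 28 of 97 listed, summed to 252 and 164, of which Cpr gave 132 and 160. The part of stage in the 0.75-h differences was not tested. In ovaries 14 members passed, 5 fell and none rose in the jumu mutant, against 4.42% and 1.57% of 7699 genes. snRNA:U2:38ABa (48.1 in wild type), CG43630 (25.2) and CG43114 (3.66) were listed at 0 in the mutant ovary, and the ecdysone genes sro (8.31 and 3.13) and GstE14 (2.92 and 0.544) were lower. After quantile normalization 1 member rose and 4 fell, against 2.32% and 3.13% of all genes, and sro (-0.88) did not pass. spo was at 5.20 and 2.56. The eggshell and yolk sum was 75393 in wild-type and 36576 in mutant ovaries, and its part in these differences was not tested.

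6mA was no more frequent at the members than over all genes. With a peak counted when its centre lay in the gene or within 1 kb of it, 19 of 86 members were marked at 0.75 h, 22.1% (13.9 to 32.3), against 22.0% of all 17402 genes. Divided by length, 8 of 64 members under 3 kb (12.5%) and 11 of 22 longer ones (50.0%) were marked, with 12.7% and 42.8% for all genes. At 3 h, 2 members carried a peak (2.33%, 0.283 to 8.15, against 6.96%), and at 6 h 1 did (1.16% against 4.44%). In DMAD knockdown embryos at 6 h, 9 members carried one (10.5%, 4.90 to 18.9, against 14.0%). The sustained zygotic genes were marked in 37.1% of cases at 0.75 h, 11.3% at 3 h, 8.76% at 6 h and 29.9% in DMAD knockdown. By length at 0.75 h, this was 10.8% of those under 3 kb and 61.4% of the longer ones. Each condition had 1 library, so these shares have no replicate error.

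Blimp-1 (chr3L, 21112 bp, 6 exons in its longest form) kept a 6mA peak at all 3 stages, at chr3L:5651267-5651594 at 0.75 h, chr3L:5651296-5651532 at 3 h and chr3L:5651375-5651608 at 6 h. Jumu peaks come from DNA that the purified protein pulled down, and do not show where Jumu is bound in the embryo. Blimp-1 was also the only member with a Jumu peak at 0.75 h, at chr3L:5634306-5634531, apart from its 6mA peaks (nearest from chr3L:5639898). This makes 1.16% of members, against 4.34% of all genes and 10.8% of the sustained zygotic genes. At 6 h none of the 86 members had a Jumu peak, which allows a share of up to 4.20%. Of all genes 1.75% had one, and of the sustained genes 3.09%. The Blimp-1 RNA was at 15.1 in wild type and 32.5 in M-,Z+ embryos, a rise just past the limit (1.06). In M-,Z- embryos it was at 7.96, a change of -0.85 that did not reach the limit. Pka-C3 was the other member with a peak at 3 h.

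The members with and without the mark are given side by side, and no difference between them was tested. In DMAD M- embryos, 13 of 16 members with a wild-type 6mA peak at any stage fell, and so did 39 of 51 without one, with median changes of -1.69 and -1.96. In jumu M-,Z- embryos 6 of 17 marked and 14 of 58 unmarked members fell, with medians of -0.85 and -0.43, while over all genes 18.1% of the marked and 18.4% of the unmarked fell. Against M-,Z+ embryos, 9 of 17 marked members (52.9%) and 19 of 58 unmarked members (32.8%) were lower in M-,Z- embryos, and 17.9% and 10.5% over all genes.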

How the data were processed

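RNA-seq values are FPKM as the authors deposited them, 1 pooled value per gene and group over 2 libraries. By the study's methods, ribosomal reads were removed with Bowtie2, the rest mapped to dm6 with STAR and FPKM computed with cuffdiff. The submitters' processing notes also name TopHat2 and FastQC. In the peak lists, the deposited score of each peak comes from MACS2, called by the authors on 1 library per condition, and rises with peak significance. The zld overexpression and 6-h DMAD knockdown RNA-seq was not used here.

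Changes were computed as differences of log2(FPKM + 1) within a table, with a limit of 1, and a mean FPKM of at least 1 over the groups. The planned comparisons had no values per library, so members are described by counts and medians beside all genes. Genes were placed with Ensembl release 115 on dm6, and promoters were read from the dm6 RefSeq FASTA, the same build. hairy is hry in the current names and was dropped through its synonym. Python 3.11.15 was used with pandas 2.3.3, scipy 1.17.1, numpy 2.4.6 and, for plots, matplotlib 3.10.9, and the counting of changes and motif search were tested on simulated data.

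Members and gene lists were chosen with earlier results of these data known. Named genes were the 15 most abundant members at 3 h, the 5 largest rises and 5 largest falls per comparison among members reaching an FPKM of 5 in any group of the table, members on a gene list, members with a Jumu peak, and the 3 nearest to each threshold on either side. Others were named after their values were seen, for their known function.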

Additional observations from a re-analysis of the deposited data

How the results depend on the processing

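No paired analysis was possible because the tables hold 1 pooled value per gene and group, and for the same reason no replicate could be left out. The 52 members lower in DMAD M- embryos stayed within 1.5 times that count under every alternative tried, and no named change turned its direction. Of 71 named changes, 9 no longer passed the limit after quantile normalization and none was lost with a pseudocount of 0.1. The counts that moved are given as members up and down, or as the 1 that moved. With a limit of 1.5-fold they were 19 and 9 in jumu M-,Z+, 39 down in M-,Z-, 3 and 49 for M-,Z- against M-,Z+, 5 up in DMAD M-, 3 and 5 at 0.75 h, and 1 and 9 in ovaries. Requiring an FPKM of 1 in 2 groups gave 2 down in M-,Z+, 1 up in DMAD M-, 0 and 1 at 0.75 h and 1 down in ovaries. Quantile normalization gave 0 up in M-,Z-, 1 up in DMAD M-, 1 down at 0.75 h and 1 up in ovaries. A pseudocount of 0.1 gave 2 and 4 at 0.75 h and 1 up in ovaries. With the DMAD series' wild type as control, after quantile normalization, M-,Z+ had 19 and 23, with 26.9% and 28.8% over all genes, and M-,Z- 5 and 32, with 25.7% and 26.6%. With that of the stage series, whose values chose the members, M-,Z+ had 3 and 30, with 5.12% and 6.25% over all genes, M-,Z- 0 and 68, with 12.9% and 12.2%, and DMAD M- 1 up, with 29% up over all genes. With either of these controls the members of M-,Z+ had more falls than rises, the opposite of the 12 up and 4 down against its own wild type. The cause of these shifts between wild types was not tested.

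Other membership limits changed the number of genes counted. A 6-h level of up to 0.5 of the 3-h level gave 19 and 7 in M-,Z+, 34 down in M-,Z-, 47 down for M-,Z- against M-,Z+ and 7 up in DMAD M-. A limit of 0.125 gave 13, 17 and 1 for the last 3 of these. A 3-h FPKM of at least 10 gave 13 down in M-,Z- and 0 up in DMAD M-, and a 0.75-h FPKM below 0.5 gave 1 up in DMAD M-. Chosen after seeing the data, an FPKM of 5 in all 3 wild types at 3 h gave 7 and 2 in M-,Z+, 12 down in M-,Z-, 18 down for M-,Z- against M-,Z+ and 0 up in DMAD M-. With the peak centre in the gene itself, 10 members had 6mA at 0.75 h and 4 in DMAD knockdown, and with any overlap 2 had it at 6 h. The 7-base Zelda site was in 20 members. Depth of the RNA-seq is unknown and 27 members lay between 5 and 10 at 3 h.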
